A study of Mus musculus and Rattus norvegicus with 35 samples.

Results

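Brain gene expression was compared with that of heart, liver, lung and testis in mouse total RNA from which ribosomal RNA had been depleted. The 15 libraries, of 35 samples in the series, were the 3 rRNA-depleted brain libraries and the 12 rRNA-depleted libraries of the other 4 tissues, chosen by their labels alone. A poly(A)-selected brain library was left out, and the remaining samples, hippocampal and rat, were not used here.

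All animals were C57BL/6 mice, an inbred laboratory strain, without any allele or treatment named in the labels. Each tissue had 1 library at 14 weeks and 2 at 20 weeks. The labels give no sex, no brain region and no count of animals per library, and do not say that libraries came from separate animals, so p-values measure the spread between these libraries, which may be technical. RNA was extracted with TRIZOL in every group. Values are TPM (transcripts per 1000000) as deposited by the authors, a level per transcript length that sums to 1000000 in each library, and the read depth behind them is unknown.

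The brain is built of neurons, which signal at synapses, and of glia, which insulate axons, clear transmitter and survey the tissue. A neuron releases transmitter when a membrane-fusion machine of SNARE proteins joins a vesicle to the plasma membrane at the active zone, and the receiving cell reads it with receptors anchored in the postsynaptic density. Many genes of this machinery have a close relative that does similar work in most cells. Neuronal genes are kept silent outside the nervous system in part by REST, a zinc finger repressor that binds a DNA element called RE1.

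The defining markers fitted the labels. Snap25, the SNARE of the neuronal plasma membrane, had 1858, 1846 and 1950.0 TPM in the 14-week and both 20-week brain libraries, in that order, against a lowest, median and highest of 0, 0.48 and 1.46 TPM in the 12 others. Rims1, a scaffold of the active zone, had 176, 109.9 and 119 TPM in brain libraries, against 0, 0.196 and 0.982 TPM in the others. Mbp, a myelin protein of oligodendrocytes, had 1924, 2354 and 2289.7 TPM in brain libraries, against 0.504, 3.86 and 34.2 TPM. For all 3 genes the lowest brain library lay far above the highest of the others. Tubb3, another neuronal marker, is listed at 0 in all 15 libraries, brain included, so an exact 0 in this table need not mean that a transcript is missing.

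Some libraries stood apart. Within brain, the 14-week library correlated with each 20-week library at r = 0.95 over log2 levels, and the 20-week libraries with each other at r = 0.989, while no brain library reached more than r = 0.717 with another tissue. Ddx3y and Eif2s3y, on the Y chromosome, had 49.2, 68.5 and 75.4 TPM and 83.7, 124 and 113 TPM in the brain libraries but are listed at 0 in the 14-week heart, liver and lung libraries, and at 10.1 and 60.7 TPM in the 14-week testis library. The 14-week comparison therefore includes 3 libraries in which both genes are listed at 0, and the part of this in any result was not tested. The 20-week brain libraries also listed low levels of transcripts that define other organs, described with those genes.

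Brain spread its RNA over many genes. The 10 most abundant genes held 4.01% to 4.49% of all TPM in brain libraries, against 7.07% to 21.3% in the other libraries, and the most abundant gene in each brain library was the nuclear noncoding RNA Malat1. Genes at 1 TPM or more numbered 15058, 15318 and 15396 in brain libraries, against 13378 to 14027 in heart, 11728 to 12439 in liver, 15379 to 15599 in lung and 14962 to 15605 in testis. Brain had 15257 ± 177 such genes (SD, n = 3) and the others 14132 ± 1509 (SD, n = 12), a difference of 1125 that was not significant in a two-sided exact permutation test (p = 0.27, 455 splits, smallest possible p = 0.0022). That test treats the 12 others as exchangeable, although they fall into 4 tissues that differed from each other. Every brain library had more such genes than any heart or liver library, while the ranges of brain, lung and testis overlapped.

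Of 18966 genes tested, 8612 were higher (45.4%) and 5307 lower (28%) in brain than the mean of the other 4 tissues (limma, adjusted p under 0.05, with adjustment by Benjamini-Hochberg over all genes). Against single tissues, the same brain libraries gave 8217 higher (43.3%) and 2985 lower genes (15.7%) with heart, 11246 (59.3%) and 2160 (11.4%) with liver, 5433 (28.6%) and 5485 (28.9%) with lung, and 9016 (47.5%) and 5209 (27.5%) with testis. The median difference of all genes from the 4-tissue mean was 0.34 on the log2(TPM + 1) scale, and -0.22 once library medians were made equal. Of all calls against the mean, 61.9% were higher on TPM as deposited, and 41.5% with equal medians or 41% with quantile normalization. Each difference below is best read against that median, and since the tissues are bulk samples, fewer cells of a type and less RNA per cell cannot be told apart.

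**Figure D1:**
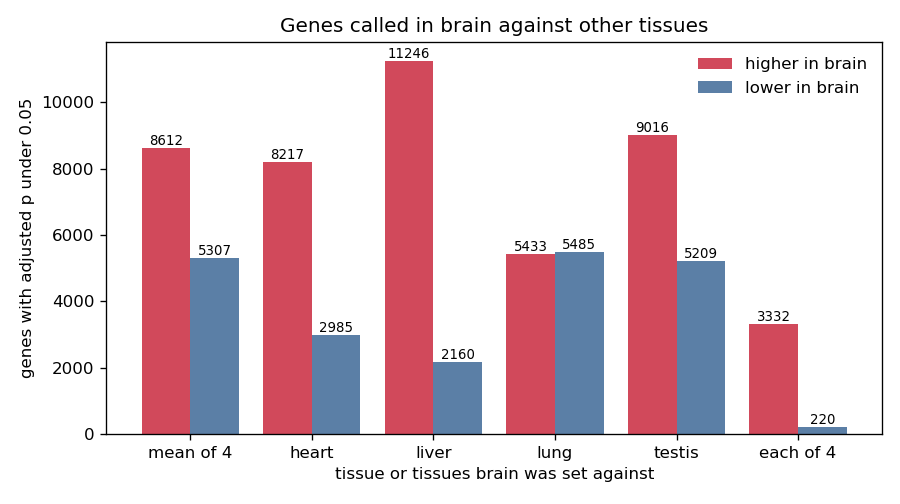
Number of genes (y axis) higher or lower in brain, by what brain was set against (x axis): the mean of the 4 tissues, 1 tissue, or each of the 4 at once, with adjusted p under 0.05 in limma. Against each of the 4 tissues, 3332 genes were higher and 220 lower.

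A mean over 4 tissues can be pulled by 1 of them, so genes that passed against each tissue separately were taken as the stricter set. Brain was above each of the 4 tissues for 3332 genes (17.6%) and below each for 220 (1.16%). Of the 5307 genes lower than the mean, 2151 were below only 1 tissue and 1969 below 2, and 1288 were above at least 1 tissue. In 3197 of the 3332 genes above each, the lowest brain library exceeded the highest of the 12 others, which was so for 3520 (18.6%) of all genes tested. The nearest tissue was at least 4-fold lower for 1399 of them, on the scale of TPM + 1, and at least 32-fold lower for 244. Together the 3332 genes held 39.9%, 34.7% and 35.0% of TPM in the brain libraries, against 3.65% to 8.38% in the others. They comprised 3178 protein-coding genes, 18.0% of those tested, and 154 long intergenic noncoding RNAs, 11.7% of those tested. With equal medians 2460 genes were above each and 645 below each, so the small number below each rests in part on the scale. Counts of list members below are best read against these shares of all genes, 17.6% above each and 1.16% below each. Against the mean, the shares were 45.4% higher and 28% lower. Every list was chosen with earlier results of these data known, so its counts describe its members and are no independent support.

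The largest differences above each tissue were those of Snap25, Mobp, Stmn3, Cck, Pcp4, Scg2, Kif5a, Nefl, Mbp, Nsg2, Scg5 and Syp, in that order. Snap25 differed from the 4-tissue mean by 10.32 ± 0.22 (SE, adjusted p = 6.1e-14) on the log2(TPM + 1) scale, with a brain mean of 1885 ± 56.7 TPM (SD, n = 3). Mobp, another myelin protein, had 1426, 1402 and 1145 TPM in brain libraries, against 0, 0.273 and 1.96 TPM as lowest, median and highest elsewhere. Cck, the neuropeptide cholecystokinin, had 792, 461 and 553 TPM in brain libraries, against at most 0.463 TPM elsewhere, a difference of 9.06 ± 0.17 (SE, adjusted p = 3e-14). Scg2, a granin of dense-core vesicles, had 357, 512 and 507 TPM in brain libraries, against 0 to 0.513 TPM. Nefl, the light neurofilament chain, had 492, 444 and 390.0 TPM in brain libraries, against 0 to 0.626 TPM, and its difference was 8.58 ± 0.15 (SE, adjusted p = 1.5e-14). None of these ranges overlapped.

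**Figure D2:**
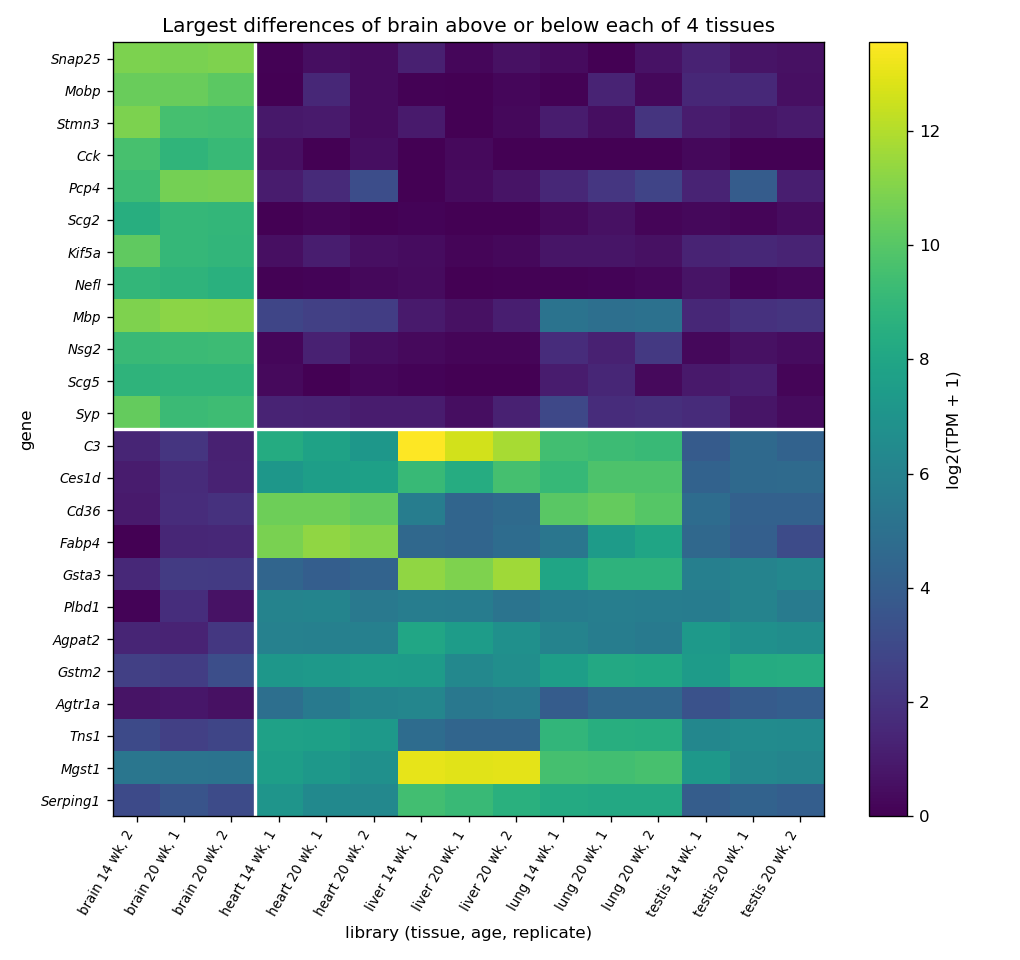
Colour gives log2(TPM + 1) of each gene (rows) in each library (columns, brain left). The 12 largest differences above each tissue fill the upper rows and the 12 largest below each fill the lower rows, and in every row the 3 brain libraries stand apart from the other columns.

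The promoters of Scg2, Nsg2, Gria2 and Dnajc6 are shown because they hold a block of the RE1 element that REST binds. They have the largest differences among the genes above each tissue that do, with genes of a single chromosome left out of the choice. Each promoter shown runs from 250 bases before to 50 bases after the RefSeq start of the gene on build GRCm38.p6. It is written on the gene's strand from 5′ to 3′, and has in capitals the match to a block on either strand. The left block searched was TTCAGCACC and the right block GGACAGCGC, which do not overlap in RE1. Scg2 (chr1:79439977-79440276, minus strand) and Nsg2 (chr11:32000450-32000749, plus strand), a protein of neuronal endosomes, hold a left block, reversed in Scg2. Gria2 (chr3:80802786-80803085, minus strand), an AMPA receptor subunit, and Dnajc6 (chr4:101550344-101550643, plus strand), the clathrin-uncoating protein auxilin, hold a reversed right block.
Scg2: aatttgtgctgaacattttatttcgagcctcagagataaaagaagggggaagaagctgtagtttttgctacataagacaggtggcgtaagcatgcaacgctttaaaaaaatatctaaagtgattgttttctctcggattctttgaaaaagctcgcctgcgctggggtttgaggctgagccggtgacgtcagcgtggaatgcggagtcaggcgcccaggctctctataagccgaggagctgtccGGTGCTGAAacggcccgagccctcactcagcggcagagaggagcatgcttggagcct
Nsg2: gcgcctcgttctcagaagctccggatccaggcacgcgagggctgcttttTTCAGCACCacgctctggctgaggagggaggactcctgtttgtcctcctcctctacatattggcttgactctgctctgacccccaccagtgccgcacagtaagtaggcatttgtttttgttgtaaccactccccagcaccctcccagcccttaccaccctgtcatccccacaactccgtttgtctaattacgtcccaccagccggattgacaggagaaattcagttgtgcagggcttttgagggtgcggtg
Gria2: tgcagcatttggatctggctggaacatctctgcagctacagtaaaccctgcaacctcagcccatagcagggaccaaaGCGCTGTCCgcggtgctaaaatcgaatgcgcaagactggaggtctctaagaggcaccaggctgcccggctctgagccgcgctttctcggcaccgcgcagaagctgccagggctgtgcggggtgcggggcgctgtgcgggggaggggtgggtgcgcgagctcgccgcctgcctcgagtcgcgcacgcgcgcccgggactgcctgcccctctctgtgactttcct
Dnajc6: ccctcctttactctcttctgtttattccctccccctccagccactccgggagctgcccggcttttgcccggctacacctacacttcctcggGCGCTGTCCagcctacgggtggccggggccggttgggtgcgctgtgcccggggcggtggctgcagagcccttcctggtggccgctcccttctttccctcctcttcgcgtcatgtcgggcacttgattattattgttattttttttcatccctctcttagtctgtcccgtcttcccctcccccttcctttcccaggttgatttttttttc

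Either block was found in 57 of the 2495 genes above each tissue that had a promoter in the table (2.28%), and in 11 of 188 genes at least 32-fold above the nearest tissue (5.85%). It was found in none of 167 genes below each tissue, in 168 of 14205 tested genes (1.18%) and in 240 of all 27025 genes of the table (0.888%). Both blocks were in the promoters of 4 genes above each tissue, Ptprn2, Psd, Unc13a and Tph2, which were picked out after their matches were seen, and in 5 of all. These matches describe letters in a short window and do not show binding.

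Rest itself was lower in brain. It had 2.73, 6.32 and 4.7 TPM in brain libraries, against 16 ± 0.853 TPM in heart, 11.6 ± 0.141 in liver, 28.8 ± 1.22 in lung and 10.3 ± 3.51 in testis (SD, n = 3 each). The highest brain library, at 6.32 TPM, lay just above the lowest of the other 12, at 6.28 TPM, yet Rest was below each tissue, with a difference of -1.59 ± 0.20 (SE, adjusted p = 7.7e-06) from their mean. Of 9 genes of the REST complex, 3 were higher and 1 lower, where 45.4% of all genes tested were higher and 28% lower. With equal medians 3 of the 9 were higher and 6 lower. The deacetylase gene Hdac2 (1.18 log2) and the histone demethylase gene Kdm1a (1.15 log2), whose products REST recruits, were among those higher.

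All 35 genes listed for synaptic vesicle release were above each of the 4 tissues, with a median difference of 5.59 log2. All 35 remained so with equal medians and without any 1 library. The list was chosen with earlier results known, so these repeats on the same libraries are no independent support. Syp, the vesicle membrane protein synaptophysin, had 1309, 595 and 637 TPM in brain libraries, against 0.339, 1.38 and 6.62 TPM as lowest, median and highest elsewhere. Rab3a, a GTPase that brings vesicles to the release site, had 609, 794 and 829 TPM in brain libraries, against 1.11, 15.7 and 65 TPM, the highest values being those of heart. Nsf, the ATPase that takes SNARE complexes apart, had 755, 489.5 and 503 TPM in brain libraries, against 7.87, 22.1 and 52.9 TPM, so that this general trafficking gene was listed in every tissue. Vamp2, the vesicle SNARE, differed by 3.18 ± 0.27 (SE, adjusted p = 1.1e-07). The summed level of the 35 genes was 11072, 8997 and 9748 TPM in brain libraries, against at most 396 TPM, in lung.

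Of 16 active zone genes, all were higher than the 4-tissue mean and 14 were above each tissue. Rims1 differed by 6.68 ± 0.14 (SE, adjusted p = 7.5e-14). Rims2, its relative, had 123, 153 and 157 TPM in brain libraries, against 0.0272 to 23.8 TPM elsewhere, and the highest values were in testis, at 22.4 ± 1.23 TPM (SD, n = 3). The exceptions were Erc1 and Unc13b, members that other tissues use too. Erc1 had 43.9, 58.4 and 53.4 TPM in brain libraries, against 41.5 ± 11.4 TPM in heart, and Unc13b had 39.2, 49.5 and 61.5 TPM, against 76.4 ± 1.32 TPM in lung (SD, n = 3 each). Erc1 overlapped with heart, whereas every brain library lay below every lung library for Unc13b, which was called lower than lung by -0.62 log2 (adjusted p = 0.04).

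On the receiving side, all 27 postsynaptic density genes tested were higher than the mean and 21 were above each tissue, with a median of 4.44 log2. Camk2a and Camk2b encode the kinase subunits of synaptic plasticity. Camk2a had 317, 209.7 and 267 TPM in brain libraries, against 0.0303 to 32.9 TPM elsewhere, where heart was highest at 23.8 ± 8.17 TPM (SD, n = 3). Homer1, which links glutamate receptors to calcium stores, had 356, 287 and 277 TPM in brain libraries, against 14.9, 24.5 and 90.5 TPM as lowest, median and highest elsewhere, again highest in heart. Nrgn, the calmodulin buffer neurogranin, differed between the brain libraries, with 764, 143 and 182 TPM, all above the 18.5 TPM that was highest elsewhere. Its difference at 20 weeks was -2.29 log2 relative to that at 14 weeks (adjusted p = 0.0046).

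All 22 glutamate receptor genes were higher than the mean and 21 above each tissue. The 4 AMPA receptor subunits, which carry fast excitation, led the list by level. Gria2, whose product limits calcium entry, had 293, 376 and 352 TPM in brain libraries, against 0.02 to 0.922 TPM elsewhere, a difference of 8.07 ± 0.14 (SE, adjusted p = 2.2e-14). Gria1 had 209.7, 275 and 239 TPM and Gria3 117, 144 and 188 TPM in brain libraries, against up to 24.7 and 45.8 TPM, both in lung. Gria4 had 156, 227 and 225 TPM, against up to 8.81 TPM, in testis.

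All 25 genes of the inhibitory synapse were above each tissue, with a median of 5.67 log2, and 24 remained so with equal medians. Glrb, the glycine receptor beta subunit, had 371, 376 and 352 TPM in brain libraries, against 0 to 1.02 TPM elsewhere. Gabbr1, a GABA-B receptor subunit, had 854, 654 and 634 TPM in brain libraries, against 1.94 to 65 TPM. Glrb differed by 8.12 ± 0.15 (SE, adjusted p = 2.2e-14) and Gabbr1 by 5.84 ± 0.14 (SE, adjusted p = 2.3e-13). Neither range overlapped with that of the other tissues.

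Genes of single transmitter cell groups were less uniform. Of 13 genes of monoamine and acetylcholine neurons tested, of 16 listed, 9 were higher than the mean, 2 lower and 7 above each tissue. Ache, the enzyme that ends acetylcholine signals, had 75.2, 47.1 and 47.3 TPM in brain libraries, against 0 to 2.12 TPM. Th, the first enzyme of dopamine synthesis, had 12.1, 17.4 and 19.5 TPM in brain libraries and was listed above 0 elsewhere in testis alone, at up to 1.08 TPM. The genes called lower were Slc6a2, the noradrenaline transporter, and Hdc, the histamine enzyme, which was higher in lung: Slc6a2 had 0.3, 0.523 and 1.26 TPM in brain libraries, against 50 ± 7.2 TPM in lung, and Hdc 5.45, 6 and 4.01 TPM, against 93.9 ± 15.5 TPM in lung (SD, n = 3 each).

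All 29 voltage-gated channel genes were higher than the mean and 26 above each tissue, 24 with equal medians. Scn2a1, the alpha subunit of a neuronal sodium channel, had 367, 424 and 493 TPM in brain libraries, against 0.137 to 3.27 TPM. Scn2b, a beta subunit, had 289.6, 222 and 223 TPM in brain libraries, against 0 to 0.798 TPM, and differed by 7.46 ± 0.13 (SE, adjusted p = 1.5e-14).

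All 21 genes of the neuronal cytoskeleton and axonal transport that were tested, of 22 listed, were higher than the mean and 19 above each tissue, with the highest list median, 6.03 log2. Mtap2, the dendritic microtubule protein MAP2, was steady at 1106, 1098 and 1109.9 TPM in brain libraries, against 1.99, 10.4 and 96.3 TPM as lowest, median and highest elsewhere. Kif5a, a neuronal kinesin, had 1214, 513 and 488 TPM in brain libraries, against 0.121 to 1.82 TPM, and Stmn3, a stathmin that regulates microtubules, had 1886, 759.9 and 699 TPM, against 0 to 3.12 TPM. The 14-week library was the highest of the brain libraries for Kif5a and Stmn3. Tuba4a was called higher than the mean but not above each tissue, with 621, 385 and 387 TPM in brain libraries, against 478 ± 52.7 TPM in heart (SD, n = 3).

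Of 29 neuropeptide and dense-core vesicle genes tested, of 30 listed, 28 were higher and 25 above each tissue. Cpe, which trims peptide precursors, had 899.8, 2055 and 2165 TPM in brain libraries, against 0.987, 43.8 and 262 TPM as lowest, median and highest elsewhere. Scg5, a chaperone of the prohormone convertase PC2, was even across brain libraries at 447, 468 and 462 TPM, against at most 1.77 TPM. Chgb, chromogranin B, differed by 7.49 ± 0.19 (SE, adjusted p = 3.9e-13). Penk, the enkephalin precursor, was called higher than the mean but not above testis, with 281, 168 and 176 TPM in brain libraries, against 121 ± 18.9 TPM in testis (SD, n = 3).

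Of 7 genes of hypothalamus and pituitary tested, of 13 listed, 5 were higher, 1 lower and 4 above each tissue. Among the hormones of hypothalamic nuclei, Pmch, melanin-concentrating hormone, had 46.8, 72.3 and 74.3 TPM and Hcrt, orexin, 19.3, 13.9 and 17.2 TPM in brain libraries, against at most 0.57 and 0.647 TPM elsewhere. Avp, vasopressin, and Oxt, oxytocin, are listed at 0 in all 12 other libraries and varied among the brain libraries. Avp had 67.7, 7.48 and 9.14 TPM and Oxt 77.5, 12.2 and 7.08 TPM, the 14-week library being highest for both. These were the 4 above each tissue.

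Of 28 neuronal transcription factor genes tested, of 30 listed, all were higher and 27 above each tissue. Zic1, a factor of cerebellar and forebrain neurons, had 59.5, 90.5 and 88.7 TPM in brain libraries, against at most 0.157 TPM elsewhere. Myt1l, a factor that represses other lineages, had 68.3, 64.7 and 73.4 TPM in brain libraries and up to 9.48 TPM elsewhere, in testis, and Mef2c, an activity-regulated factor, differed by 4.31 ± 0.17 (SE, adjusted p = 2.9e-11). Camta1, a calmodulin-binding activator, was the exception, with 111, 105 and 115 TPM in brain libraries, against 91.3 ± 17 TPM in heart (SD, n = 3).

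Splicing and RNA-binding regulators comprised 27 genes, of which 25 were higher, 1 lower and 15 above each tissue (10 with equal medians). Celf4, a regulator of neuronal transcripts, had 196, 132 and 127 TPM in brain libraries, against 0.0809 to 2.09 TPM elsewhere. Elavl4, the neuronal Hu protein HuD, had 145, 86.9 and 88.4 TPM in brain libraries, against 0 to 6.48 TPM. The gene called lower was Ptbp1, which represses neuronal exons, with 33.9, 21.3 and 30.1 TPM in brain libraries, against 22, 50.4 and 173 TPM as lowest, median and highest elsewhere, a difference of -1.11 ± 0.21 (SE, adjusted p = 0.00031). Its relative Ptbp2 had 81, 128 and 127 TPM, against 6.86, 24.5 and 94.4 TPM, so that the pair moved in opposite directions.

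**Figure D3:**
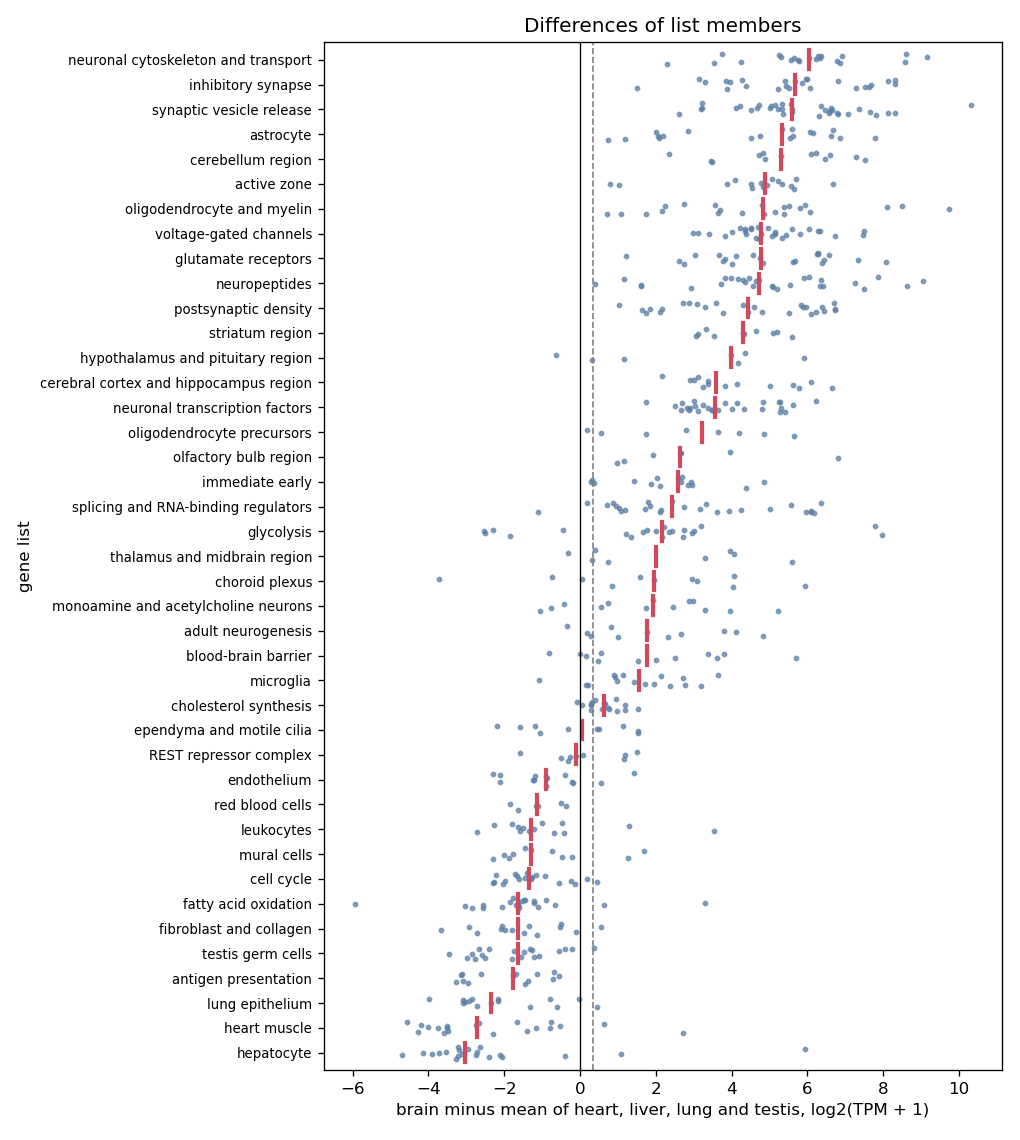
Each dot is 1 tested member of a gene list (y axis), placed by its difference, brain minus the mean of heart, liver, lung and testis, on the log2(TPM + 1) scale (x axis), with the list median as a red bar. The dashed line marks the median of all genes, 0.34, and the neuronal lists lie to its right while lists of other organs lie to the left.

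All 22 oligodendrocyte and myelin genes were higher and 17 above each tissue. Mbp was above each tissue, with a difference of 8.49 ± 0.15 (SE, adjusted p = 1.8e-14) from their mean. Among the others, lung had 32 ± 2.44 TPM (SD, n = 3). Trf, transferrin, which oligodendrocytes also make, was not above each tissue, with 615, 848 and 694 TPM in brain libraries, against 21178 ± 2237 TPM in liver (SD, n = 3). Of 8 oligodendrocyte precursor genes, 7 were higher and 5 above each, and brain was below lung for 2. Gpr17 (1.73 log2), Pdgfra (0.56 log2) and Cspg4 (0.19 log2, not called) were not above each. The 8 genes summed to a mean of 230 TPM in brain libraries and 234 TPM in lung libraries. Bcan, a matrix proteoglycan, had 119, 49.3 and 48.1 TPM in brain libraries, against at most 2.34 TPM, and Ptprz1, a receptor phosphatase, had 61.4, 65.8 and 62.1 TPM, against at most 9.07 TPM.

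All 19 astrocyte genes were higher and 14 above each tissue, 10 with equal medians. Aldoc, a brain aldolase, had 1951, 1496 and 1755 TPM in brain libraries, against 0.665 to 27.5 TPM elsewhere. Glul, the enzyme that turns glutamate into glutamine, had 2928, 2034 and 1821 TPM in brain libraries, against 272, 555 and 1269 TPM as lowest, median and highest elsewhere. Ndrg2 and Aldh1l1 were higher than the mean without being above each: Ndrg2 had 809, 704 and 742 TPM in brain libraries, against 989.6 ± 174 TPM in heart, and Aldh1l1 62.5, 55.3 and 57 TPM, against 957 ± 243 TPM in liver (SD, n = 3 each).

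Of 16 microglial genes, 11 were higher, 1 lower and 6 above each tissue, or 4 without the 14-week brain library. C1qa, a complement starter, had 116, 74.7 and 57.4 TPM in brain libraries, against 93.3 ± 17.7 TPM in heart (SD, n = 3), and these overlapped. The gene called lower, Aif1, had 16.3, 16.6 and 16.1 TPM in brain libraries, against 807 ± 70 TPM in testis (SD, n = 3), and it averaged 14.5 TPM in heart, 14.9 in liver and 12.1 in lung. Its call was lost without any 1 brain library (adjusted p = 0.070 to 0.075).

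Of 14 endothelial genes, 9 were lower than the mean, 2 higher and none above each tissue. Brain was below lung for all 14 and below heart for 13, but above testis for 13, and above liver for 7 and below it for 3. Pecam1, an endothelial adhesion molecule, had 14.6, 19.4 and 18 TPM in brain libraries, against 577 ± 75.2 TPM in lung, 139 ± 22.6 in heart, 13.6 ± 2.85 in liver and 1.97 ± 0.289 in testis (SD, n = 3 each), so brain lay above testis. Cldn5, a tight junction protein, was called higher with 93.9, 32.1 and 35.5 TPM in brain libraries, against 329.6 ± 102 TPM in lung. With equal medians or quantile normalization none of the 14, Cldn5 included, was called higher, and 12 were lower. Flt1, a receptor of vascular growth factor, was called higher by 0.57 log2, but its difference was -0.04 with equal medians. Of 12 blood-brain barrier genes tested, of 13 listed, 8 were higher, 1 lower and 4 above each. Slc2a1, the barrier's glucose transporter, had 128, 67.8 and 62.9 TPM in brain libraries, against 1.32, 6.17 and 14.1 TPM as lowest, median and highest elsewhere. Abcg2, a drug efflux pump, was lower, with 26.7, 41.6 and 43.6 TPM in brain libraries, against 41.5, 56.9 and 149 TPM, a call that was lost without the 14-week brain library (adjusted p = 0.12).

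Of 11 mural cell genes, 7 were lower, 2 higher and none above each. Acta2, smooth muscle actin, had 9.42, 18.9 and 18.1 TPM in brain libraries, against 251 ± 16.5 TPM in lung and 4.72 ± 3.04 in liver (SD, n = 3 each). Rgs5 and Vtn, which brain pericytes express, were those called higher, but Vtn differed by 1.27 log2 in the main fit and by -0.078 without testis. The 11 genes summed to a mean of 249 TPM in brain libraries, against 2429 TPM in liver and 86.5 TPM in testis. Which cells gave these levels was not tested. Rgs5 had 78.6, 86.5 and 89.5 TPM in brain libraries, against 420.3 ± 18.7 TPM in heart and at most 18.9 TPM as the mean of another tissue.

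Of 11 choroid plexus genes, 8 were higher, 1 lower and 4 above each. Ttr, the thyroxine carrier of cerebrospinal fluid, had 619, 2381 and 2501 TPM in brain libraries, against 7625 ± 3477 TPM in liver (SD, n = 3) and at most 3.77 TPM as the mean of another tissue. The 14-week brain library lay far below the 20-week ones. Enpp2, autotaxin, had 329, 675 and 606 TPM in brain libraries, against 8.56 to 88.4 TPM, again lowest among brain libraries at 14 weeks. The gene called lower was the water channel gene Aqp1, with 1.94, 3.48 and 5.45 TPM in brain libraries, against 473 ± 52 TPM in lung. Of 10 genes of ependyma and motile cilia, 4 were higher and 4 lower, against 45.4% and 28% of all genes tested. Lung and testis, which also hold ciliated or flagellated cells, had the highest summed levels.

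Markers of several brain regions were present, which the label brain does not specify. All 14 genes of cerebral cortex and hippocampus were higher and 13 above each tissue, all 10 of striatum were higher and 8 above each, and all 13 cerebellar genes tested, of 14 listed, were above each. Slc17a7, the vesicular glutamate transporter of cortical cells, had 716, 211 and 249 TPM in brain libraries, against at most 12.8 TPM elsewhere. Slc17a6, its counterpart in thalamus and midbrain, had 56.4, 54.4 and 75.3 TPM in brain libraries, against at most 2.55 TPM. Gabra6, a receptor subunit of cerebellar granule cells, had 139.7, 168 and 166 TPM in brain libraries, against at most 0.118 TPM. Pcp2 and Calb1, of Purkinje cells, had 233, 229 and 274 TPM and 278, 192 and 193 TPM in brain libraries. Ppp1r1b, the striatal phosphoprotein DARPP-32, had 142, 116 and 130.0 TPM in brain libraries, against 0.631 to 8.31 TPM. Summed levels of the cortical and hippocampal genes were 1239.6, 628 and 685 TPM in brain libraries, and those of cerebellar genes 1275, 1238 and 1330.2 TPM. Slc17a7 alone made up 716, 211 and 249 TPM of the cortical sum. The striatal genes summed to 866, 570.4 and 596 TPM in brain libraries. The cortical and striatal sums were thus highest in the 14-week library, while the cerebellar sum was even.

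Genes of the olfactory bulb were all higher, 7 of 7 tested with 5 above each, and Synpr, the vesicle protein synaptoporin, had 98.8, 159 and 153 TPM in brain libraries, against at most 0.975 TPM elsewhere. For thalamus and midbrain 6 of 8 genes tested were higher (4 with equal medians) and 4 above each, and for adult neurogenesis 7 of 11 and 5. Over all genes tested, 45.4% were higher and 17.6% above each. The neurogenesis genes listed summed to means of 191 TPM in brain, 600 TPM in lung and 238 TPM in testis libraries. Of 15 immediate early genes, 12 were higher and 5 above each, or 3 without the 14-week brain library. Arc, induced by synaptic activity, had 196, 63.1 and 73.5 TPM in brain libraries, against 48.1 ± 3.42 TPM in testis (SD, n = 3) and means under 1 TPM elsewhere. Fos, an immediate early transcription factor, had 54.8, 31.2 and 36.6 TPM in brain libraries, against 119 ± 178 TPM in lung, and these overlapped. Its brain level was thus lower at 20 weeks, while its difference from the 4-tissue mean was higher (age difference 1.23 log2). The 15 immediate early genes summed to 1291 TPM in the 14-week lung library, and 330 and 306 TPM in the 20-week ones.

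Of 21 glycolysis genes, 16 were higher than the mean, 4 lower and 6 above each, and against heart 7 were higher and 8 lower. Aldoc (above) and Eno2, neuronal enolase, stood out, Eno2 with 969, 462 and 461 TPM in brain libraries, against 0 to 4.97 TPM. Aldoa, the muscle aldolase, had 2703, 1667 and 1843 TPM in brain libraries, against 2735 ± 81.5 TPM in heart (SD, n = 3), and was not above each. The lower genes included the muscle forms Eno3 and Pgam2, and Eno3 had 6.78, 8.71 and 13.8 TPM in brain libraries, against 1464 ± 139.8 TPM in heart (SD, n = 3).

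Of 22 fatty acid oxidation genes, 20 were lower than the mean and 2 higher, with a median of -1.62 log2, but against testis 13 were higher and 5 lower. Cd36, the fatty acid translocase, had 0.937, 2.24 and 2.88 TPM in brain libraries, against 17.3, 529.6 and 1510.2 TPM as lowest, median and highest elsewhere. It was below each tissue, with a difference of -5.95 ± 0.25 (SE, adjusted p = 6.8e-11) from their mean. Acaa2, a thiolase of the last step, had 44.3, 35.2 and 37.4 TPM in brain libraries, against 1104 ± 113 TPM in heart and 28.6 ± 4.93 in testis (SD, n = 3 each), so brain lay between tissues. The genes called higher were Cpt1c, a brain member of the carnitine palmitoyltransferase family, and Fabp3, a fatty acid carrier. Cpt1c had 55.3, 37.4 and 41.9 TPM in brain libraries, against 27.5 ± 3.13 TPM in testis and means of at most 3.46 TPM elsewhere. The call on Fabp3 was lost without either 20-week brain library (adjusted p = 0.067 and 0.095). The 22 genes summed to 938, 1154 and 1135 TPM in brain libraries, against 20595 to 23810.0 TPM in heart and 955 to 1158 TPM in testis. Of 17 cholesterol synthesis genes tested, of 19 listed, 5 were higher and none lower, but 2 were higher and 1 lower with equal medians. Over all genes tested, 45.4% were higher and 28% lower.

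The largest differences below each tissue were those of C3, Ces1d, Cd36, Fabp4, Gsta3, Plbd1, Agpat2, Gstm2, Agtr1a, Tns1, Mgst1 and Serping1, in that order. C3, the central complement protein, had 1.66, 3.22 and 1.39 TPM in brain libraries, against 14, 451 and 12007 TPM as lowest, median and highest elsewhere, a difference of -6.92 ± 0.31 (SE, adjusted p = 1.4e-10). Ces1d, a carboxylesterase, had 1.05, 2.19 and 1.42 TPM in brain libraries, against 18.5, 269 and 867 TPM. Plbd1, a lysosomal phospholipase-like protein, was even across the other tissues at 36.5 to 68 TPM, against 0.108, 2.41 and 0.585 TPM in brain libraries. Agpat2, which makes phosphatidic acid for fat storage, had 1.64, 1.59 and 3.53 TPM in brain libraries, against 47.4, 82.9 and 259 TPM. The glutathione transferase genes Gsta3 and Gstm2 and the microsomal Mgst1, all of detoxification, differed by -5.45, -4.79 and -3.84 log2. For these 12 genes no brain library overlapped with another library, which held for 187 of the 220 genes below each and for 284 (1.5%) of all genes tested. The 220 genes held 0.199% to 0.242% of TPM in brain libraries, against 1.31% to 4.19% in the others.

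Immune and connective tissue genes were mostly lower than the 4-tissue mean, with counts that differed by tissue. Of 15 antigen presentation genes, 13 were lower than the mean and none higher. Brain was below lung for 15 and below heart and liver for 13 each, but below testis for 2 and above it for 6. H2-K1, a class I heavy chain, had 37.1, 32.4 and 28.3 TPM in brain libraries, against 41.7, 485 and 1117 TPM as lowest, median and highest elsewhere, and B2m, its light chain, had 201, 212 and 183 TPM, against 2730.2 ± 519 TPM in liver and 68.6 ± 17.8 in testis (SD, n = 3 each). Brain thus lay above testis for B2m. Reads of class I genes can be shared between near-identical copies. Of 14 leukocyte genes, 10 were lower and 2 higher, Coro1a and Itgam, which microglia also express. For these 14, brain was below lung for 12, and below heart for 6 and above it for 1. It was below liver for 2 and above it for 2, and below testis for 3 and above it for 6. Of 14 fibroblast and collagen genes, 10 were lower, 1 higher and 3 below each tissue. Brain was below heart and lung for 13 each. It was below liver for 5 and above it for 5, and below testis for 3 and above it for 5. Col3a1, a fibrillar collagen chain, had 4.31, 2.15 and 2.71 TPM in brain libraries, against 6.54, 61.7 and 372 TPM. Of 20 cell cycle genes, 16 were lower than the mean and none higher. Brain was below testis for 17 and below lung for 15. It was below heart for 4 and above it for 2, and below liver for 2 and above it for 3. Top2a, a topoisomerase of dividing cells, had 3.83, 3.09 and 1.76 TPM in brain libraries, against 137 ± 10.5 TPM in testis and 5.27 ± 4.25 in liver (SD, n = 3 each). Of 6 red blood cell genes 2 were lower, against 28% of all genes tested. The globin genes, whose copies share reads, did not pass.

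Genes that define the other organs were mostly lower than the mean, in which their home organ is 1 of the 4. Of 20 heart muscle genes 15 were lower, of 20 hepatocyte genes 17, of 15 lung epithelial genes 13 and of 20 male germ cell genes 17. Members called higher were Ryr2 and Atp2a2 of heart muscle, Ttr and Trf of liver and Dazl of germ cells, and each of these had its highest level in its home organ. Ryr2, a calcium release channel that neurons also use, had 55.6, 76.9 and 79 TPM in brain libraries, against 689.7 ± 106 TPM in heart and at most 13 TPM as the mean of another tissue. Atp2a2, a calcium pump, had 0.63 log2 and -0.05 with equal medians, and Dazl 0.36 and -0.12, so the direction of both depended on the scale. Without either 20-week brain library both calls were lost (adjusted p = 0.093 and 0.13 for Atp2a2, 0.21 and 0.23 for Dazl).

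Low levels of such genes differed between the brain libraries. Alb, serum albumin, is listed at 0 in the 14-week brain library and had 16.3 and 27.4 TPM in the 20-week ones, against 52710.3 ± 15546 TPM in liver and 32 ± 21.4 in heart (SD, n = 3 each). Myl2, a ventricular myosin chain, had 0.736, 8.56 and 16.8 TPM, and Tnp1, a sperm transition protein, 0, 7.06 and 8.52 TPM in brain libraries. The hepatocyte list summed to 1298, 3339.9 and 3312 TPM in brain libraries, of which Ttr made up 619, 2381 and 2501. Trf, whose levels are given with the myelin genes, made up most of the rest in each brain library. The germ cell list summed to 18.8, 49.1 and 54.3 TPM in brain libraries, against 50311 to 67120.0 TPM in testis. The part of these levels in the age differences was not tested.

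Close relatives of neuronal genes were compared within each library. Of 25 pairs of a brain form and a more general form, 24 could be tested, the pair of Tubb3 having no listed level. The brain form was higher than the mean in all 24 and above each tissue in 21. Within a library, the log2 ratio of the forms was higher in every brain library than in all 12 others for 19 of 24 pairs. The brain form exceeded the general one in all brain libraries for 18 pairs, and the general form exceeded the brain form in all 12 other libraries for 15. The general form itself was lower in brain in 7 pairs, higher in 14 and not called in 3, or lower in 10 and higher in 11 with equal medians. Of all genes tested, 28% were lower and 45.4% higher than the mean, so the general forms were not far from other genes in this.

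Snap25 and its relative exchanged places. Snap23, the general SNARE, had 18, 33.9 and 36.1 TPM in brain libraries, against 47.1, 70 and 146 TPM as lowest, median and highest elsewhere. It was below each tissue, with a difference of -1.38 ± 0.20 (SE, adjusted p = 3.3e-05) from their mean. The log2 ratio of Snap25 to Snap23 was 6.62, 5.73 and 5.72 in brain libraries, against at most -4.35 elsewhere. Syp against Sypl gave mean log2 ratios of 4.43 in brain and at most -4.08 in any other library. Vamp2 against Vamp8 gave a brain mean of 1.88, and no other library exceeded -1.35.

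In the creatine kinase pair, the relative exceeded the brain form in heart alone. The brain form Ckb had 2726, 1398 and 1346 TPM in brain libraries, against 2.91, 22.3 and 58.9 TPM elsewhere, and the muscle form Ckm had 0, 0 and 1.31 TPM in brain libraries, against 2038 ± 129 TPM in heart (SD, n = 3). In 5 pairs another library reached or passed a brain ratio, among them Hk1 to Hk2, Slc2a3 to Slc2a1, Cpt1c to Cpt1a and Mapk10 to Mapk9, with the highest ratios in testis. Slc2a3, a neuronal glucose transporter that sperm also use, had 168, 145 and 204 TPM in brain libraries, against 918 ± 357 TPM in testis (SD, n = 3).

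**Figure D4:**
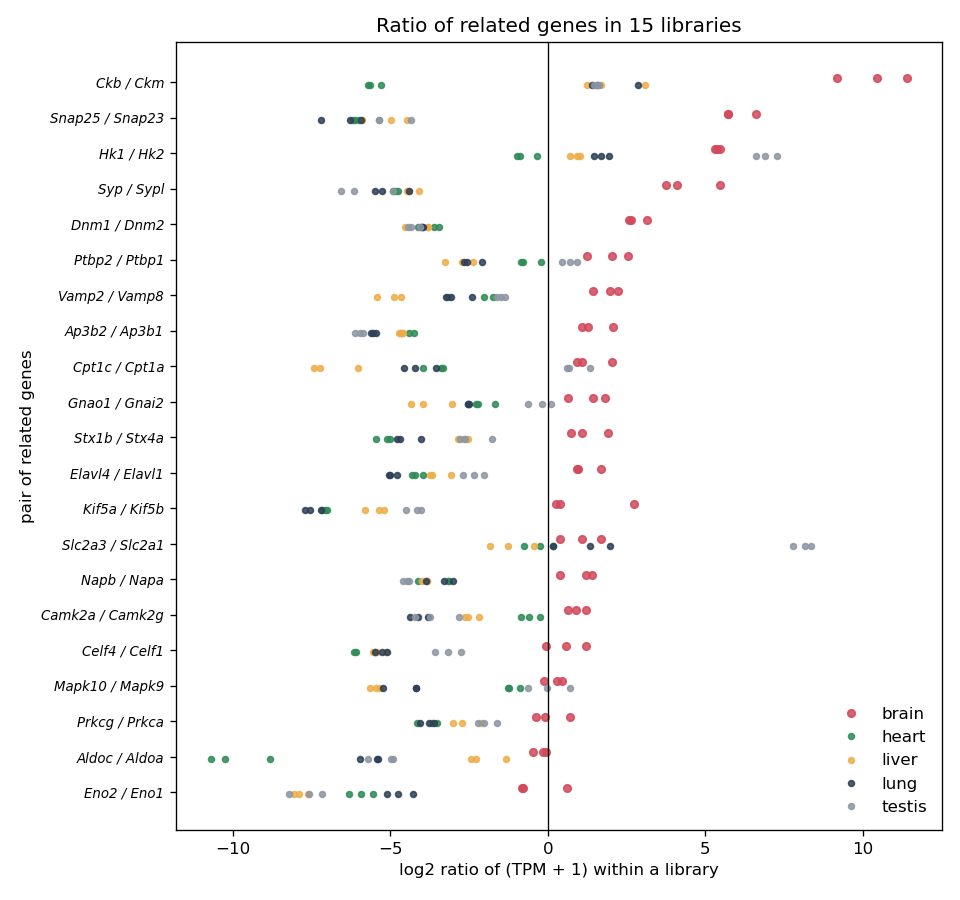
Each dot is 1 library, coloured by tissue, placed by the log2 ratio of (TPM + 1) of the brain form to that of its relative (x axis), for 21 of the 24 gene pairs tested (y axis). In 17 of the 21 every brain dot lies to the right of all 12 others, and Hk1, Slc2a3, Cpt1c and Mapk10 are the exceptions.

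The brain difference was also set against itself at the 2 ages, with 1 brain library at 14 weeks, so that age and that library cannot be told apart. The 14-week and 20-week libraries were also deposited separately, so age and deposited set cannot be told apart in any tissue. The difference from the 4-tissue mean was higher at 20 than at 14 weeks for 1863 genes (9.82%) and lower for 1112 (5.86%), with 1 library per tissue at 14 weeks assumed to vary like the 20-week pairs. Of the 3332 genes above each tissue 645 had an age difference that passed, and of the 220 below each 15. Without 1 of the 20-week brain libraries, 1049 and 1112 genes were higher at 20 weeks, and 601 and 686 lower.

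The smallest p-values for a higher difference at 20 weeks were those of A1bg, Hnrnph3, Rps16, Rps29 and Tyms. Rps16 and Rps29, ribosomal protein genes with many processed copies that may share reads, had 22.8, 486 and 493 TPM and 71.5, 1425 and 1362 TPM in brain libraries, whereas the 12 other libraries had 140.0 to 697 TPM and 491 to 1461 TPM. The 14-week brain library thus lay below every other library for both. Hnrnph3, a splicing factor, had 10, 76.8 and 91.5 TPM and Tyms, thymidylate synthase, 12, 90.8 and 95.5 TPM in brain libraries. The smallest p-values for a lower difference were those of Avp, Ddx3y, Eif2s3y, Nptxr and Nrtn. Nptxr, a neuronal pentraxin receptor, had 312, 3.24 and 2.49 TPM in brain libraries, against at most 22.7 TPM elsewhere, and Nrtn, the growth factor neurturin, 19.8, 0 and 0 TPM. For Ddx3y and Eif2s3y the levels in the other tissues changed, as given above.

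The age difference moved with base composition. In 4 equal groups of genes ordered by the GC content of the longest GENCODE transcript, known for 97.3% of genes tested, the median age difference was 0.37, 0.18, 0.01 and -0.30 log2 from the lowest to the highest GC. Genes higher at 20 weeks had a median GC content of 44.2% and those lower 56.1%, against 49.3% over all genes tested. Genes above each tissue had 49.9% and those below each 48.9%. The median brain difference from the 4-tissue mean was 0.28, 0.28, 0.27 and 0.57 log2 in the same 4 groups, highest at the highest GC. The part of base composition in any single age difference was not tested.

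**Figure D5:**
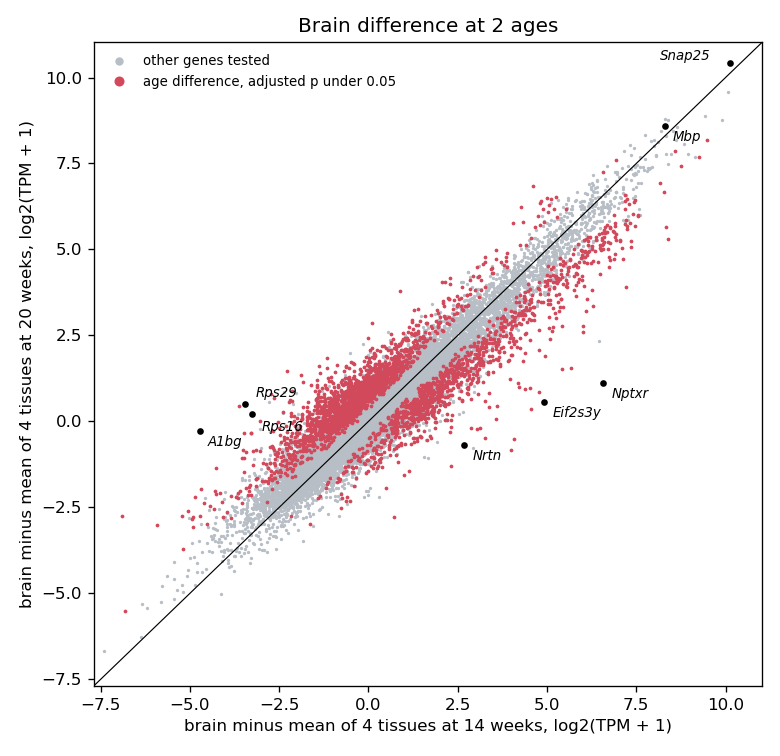
Each dot is a gene, placed by its brain difference from the mean of 4 tissues on the log2(TPM + 1) scale at 14 weeks (x axis) and 20 weeks (y axis), with the line of equality. Red dots are the 1863 genes higher and 1112 lower at 20 weeks, and labelled dots include Nptxr and Nrtn below the line and Rps16, Rps29 and A1bg above it.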

How the data were processed

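RNA levels of mouse brain, heart, liver, lung and testis were measured by sequencing of rRNA-depleted total RNA, with 3 libraries per tissue. Per the submitters' processing notes, CASAVA 1.8.2, TopHat2 2.0.6, Cufflinks 2.2.1 and build mm9 were named for the series, without their settings. The deposited table holds TPM values per gene, made by the authors, for 24601 genes, each library summing to 1000000. Columns of 13 other libraries were not used here. No counts were given, so the read depth is unknown and no counting interval can be stated.

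Levels were taken to log2(TPM + 1), and 18966 genes at 1 TPM or more in at least 3 of the 15 libraries were tested with limma 3.58.1 in R 4.3.3. A single fit held 1 mean per tissue, with eBayes and a trend, two-sided p-values and Benjamini-Hochberg adjustment over all genes tested, with a threshold of 0.05. Fold changes are on the log2(TPM + 1) scale, which understates the change of low genes. Brain was set against the mean of the 4 tissue means and against each tissue. The age difference came from a fit with 1 mean per tissue and age. The fit was tested on simulated data. Numbers of genes at 1 TPM were compared by a two-sided exact permutation test.

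Of 679 gene symbols on 41 lists, 678 matched the table, 7 of them by a synonym. The members, lists and pairs were chosen with earlier results of these data known. Genes named are the 12 largest differences in each direction with at least 10 TPM in the higher group, the 4 most abundant members of each list and up to 3 called against its direction, both genes of each of 25 pairs, the 3 markers, and the 5 smallest p-values of the age difference in each direction. Some genes named by this rule are not reported here, and they stay in the counts. Promoters came from RefSeq on GRCm38.p6 and GC contents from GENCODE M21 transcripts, neither being the build of the files. Alternatives were the pseudocount, the filter, the scaling, the trend, a 2-fold minimum, an age term, a replicate block, 1 age only, 2 groups, leaving out testis and leaving out each library.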

Additional observations from a re-analysis of the deposited data

Results flagged for a closer look

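The brain difference from the 4-tissue mean differed between 14 and 20 weeks, by the test of the difference itself, for 1863 genes that were higher and 1112 that were lower at 20 weeks. Among genes named above, A1bg (4.44), Alb (4.15), Rps29 (3.96), Rps16 (3.47), Hnrnph3 (2.72), Tyms (2.68), Myl2 (2.13), Cd36 (1.32), Fos (1.23), Mapk10 (0.72), Hdac2 (0.64) and Pecam1 (0.56) had a higher difference at 20 weeks, the values in brackets being log2 age differences. A lower difference at 20 weeks was found for Nptxr (-5.46), Eif2s3y (-4.37), Ddx3y (-3.92), Nrtn (-3.36), Oxt (-2.93), Avp (-2.89), Nrgn (-2.29), Pgam2 (-1.32), Kif5a (-1.29), Arc (-1.13), Glul (-1.13), Penk (-1.11), Slc2a1 (-1.10), Bcan (-1.09), Ckb (-0.60), Acaa2 (-0.58) and Aldoa (-0.51). Each value is relative to the other tissues. For Fos, Ddx3y and Eif2s3y the brain level moved opposite to the difference, so levels in other tissues changed. Under 16 alternatives of the age fit, the difference passed in every case for A1bg, Alb, Avp, Cd36, Ddx3y, Eif2s3y, Glul, Hnrnph3, Myl2, Nptxr, Nrgn, Nrtn, Oxt, Rps16, Rps29 and Tyms, and in 4 to 8 of 16 for Acaa2, Aldoa, Fos, Pecam1 and Pgam2. The 14-week libraries number 1 per tissue and were deposited separately from the 20-week ones, so that age, deposited set and the 14-week brain library cannot be told apart. Besides, 2 Y-linked genes are listed at 0 in 3 of the 14-week libraries, and low levels of other organs' transcripts are listed in the 20-week brain libraries. The part of each in these differences was not tested.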

How the results depend on the processing

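The scale set the balance of higher and lower genes. With equal library medians 5528 genes were higher than the 4-tissue mean, with quantile normalization 5505, and with the 12 other libraries as 1 group 3467 were higher and 188 lower. Quantile normalization gave 4742 higher and 5505 lower genes against heart and 5601 and 5771 against liver, and equal medians gave 4498 lower against heart and 6628 higher and 4561 lower against liver. Genes below each tissue numbered 645 with equal medians, 811 with quantile normalization and 119 at a minimum of 2-fold, which also left 3150 lower than the mean. Under the alternatives that kept all 4 tissues, and without any 1 library, genes above each stayed between 2434 and 3768. Without testis, and over 17182 genes, 4128 were above and 700 below each of 3 tissues. Lower than the mean were then 3824, of which 3104 were among the 5307 of the main fit. The age difference gave 1161 higher genes with equal medians, 607 lower with a pseudocount of 0.2 TPM and 2008 with 5 TPM. Leaving out 1 library gave 1049 to 2027 higher and 601 to 1214 lower at 20 weeks, the lowest without a 20-week brain library, and leaving out a 14-week library could not be fitted, since each tissue has 1.

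Of 3836 repeats over 137 named genes, 3655 kept direction and side, 93 lost their call, 6 gained one, 19 changed sign and 63, with the 14-week libraries alone and no test, moved by more than the spread. Signs changed with equal medians for Atp2a2 (-0.053), Dazl (-0.12) and Flt1 (-0.039), with quantile normalization for Dazl (-0.13) and Flt1 (-0.29), and with a pseudocount of 5 TPM for Dazl (-0.37). Without testis they changed for Aif1 (0.41), Atp2a2 (-0.18), Flt1 (-0.41), Tnp1 (0.41), Trf (-0.47) and Vtn (-0.078). At 20 weeks alone they changed for Hnrnph3 (0.58), Nrtn (-0.68), Rps16 (0.21) and Rps29 (0.51), without the 14-week brain library for Nrtn (-1.02) and Rps29 (0.61), whose values without 1 library ran from -1.02 to 1.17 and from -1.54 to 0.61, and at 14 weeks alone for Dazl (-0.10). The cause was not tested.

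The labels give the 20-week libraries replicate numbers 1 and 2. Deviations of same-numbered libraries correlated at 0.04 to 0.14 between tissues, not over 0.1 in every pair, so the numbers were not taken to pair samples. With the replicate block, 8959 genes were higher and 5511 lower than the mean, 3514 above each and 253 below each, within 1.5 times of the counts without it. The exact permutation test of the number of genes did not pass under any alternative run (lowest p = 0.10, at 5 TPM). With 3 libraries a tissue and no counts, small differences of low genes are beyond these data.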

Other observations

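By mean level, brain was the highest of the 5 tissues for 5658 of the 18966 genes tested, lung for 5364, testis for 4997, heart for 1637 and liver for 1310. Some genes higher in brain than the 4-tissue mean were as high in 1 other organ. Slco1a4, an organic anion transporter of the blood-brain barrier, had 55.6, 114 and 110.5 TPM in brain libraries, against 136 ± 91.5 TPM in liver and 0.964 ± 0.316 in heart (SD, n = 3 each). Rgs9, a brake on G protein signalling in striatal neurons, had 55.9, 37.8 and 40.4 TPM in brain libraries, against 35.6 ± 5.59 TPM in lung and 0.518 ± 0.291 in heart (SD, n = 3 each). Coro1a, an actin-binding protein of leukocytes, had 278, 78.4 and 81.6 TPM in brain libraries, against 93 ± 34.1 TPM in lung and 1.44 ± 0.263 in testis (SD, n = 3 each), and the 14-week brain library was the highest of all 15. None of the 3 was above each tissue.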
